A study of Rattus norvegicus with 12 samples.

Results

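The dual specificity MAP kinase phosphatases were followed in epididymal adipocytes of male Fisher 344 rats, a laboratory strain, after 35 days of chronic unpredictable stress (CUS). The family was taken as 10 genes (Dusp1, Dusp2, Dusp4, Dusp5, Dusp6, Dusp7, Dusp8, Dusp9, Dusp10 and Dusp16), and members were found on the array by their gene name. All 10 had a probe, Dusp16 had 2, and the resulting 11 probes stood among 30367 probes in all. All rats were about 12 weeks old when bought. The CUS group held 6 rats that met 2 stressors per day in random order, among them swimming, rotation, isolation, food and water deprivation, altered light, wet bedding and crowding. The control group held 6 rats of the same strain and sex that were handled when they were weighed. Fat cells were freed from the epididymal pad by collagenase, and total RNA of each rat went on 1 array with a single dye (Cy3). The source field names adipocytes while the extraction text speaks of preadipocytes. In these arrays the adipocyte markers were bright in both groups: the mean log2 level of 8 of them lay between 5.11 and 5.44 in CUS rats and between 4.70 and 5.75 in controls.

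MAP kinases (ERK, JNK and p38) are switched on when a threonine and a tyrosine in their activation loop are phosphorylated, and the dual specificity phosphatases switch them off by removing the phosphate from both residues. The family is divided into nuclear enzymes that are induced by growth factors, stress or glucocorticoids and act as a negative feedback, cytoplasmic enzymes that prefer ERK, and enzymes that prefer the stress kinases JNK and p38. In fat cells ERK signalling takes part in differentiation and lipolysis, JNK is known for its role in the insulin resistance of obesity, and p38 for its role in the thermogenic response. These arrays read messenger RNA and not phosphatase activity.

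Of the 11 member probes, 3 were higher and 1 was lower in CUS adipocytes, and all 4 belonged to the nuclear class. Dusp1 was 2.83-fold, Dusp2 2.17-fold and Dusp5 3.1-fold higher, whereas Dusp4 fell by 0.64 on the log2 scale, a difference that became 0.19 when arrays were scaled on the spike-in RNAs. Neither the 3 cytoplasmic nor the 3 stress-kinase phosphatases passed the limma test or the methods' t-test after adjustment, and at an unadjusted p under 0.05 the limma test had 1 of them, Dusp7. A probe was called at an adjusted p under 0.05 in limma, after Benjamini-Hochberg adjustment across the 19727 probes that were bright enough to test. The arrays differed widely: 50.1% of all tested probes were called, 24.6% as higher and 25.4% as lower in CUS, so that 4 called of 11 member probes is no larger a share than that of the whole array. In the nuclear class 4 of 4 probes were called.

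Levels are given throughout as log2 intensity relative to the 75th percentile of the array, so that 0 is the brightness of that percentile and 1 unit is a doubling. That percentile was an intensity of 541 to 627 on the CUS arrays and of 230 to 400 on the control arrays, and the share of probes well above background was 64.7 to 67.0% and 60.4 to 67.3%. All CUS samples shared 1 slide and all control samples the other, and the effect of the slide and that of stress cannot be told apart. Spike-in RNAs, control transcripts put into every labelling reaction, differed by -0.05 before scaling and by -0.83 after it (8 probes, two-sided exact permutation test over arrays, p = 0.73 and p = 0.0043), and scaling on them raises each difference by the size of the latter and moves the median of all tested probes from -0.02 to 0.81. Control replicate 3 stood apart from its group, with a median correlation over probes of 0.968 with the other controls where the others had at least 0.982. In bulk RNA, fewer cells of a type and less RNA per cell cannot be told apart.

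The promoters of Dusp1, Dusp2 and Dusp5 are shown because these 3 members rose together. RefSeq promoters on the rat build GRCr8, each with 250 bases before and 50 bases after the start, were at hand for 9 of the 10 members and not for Dusp4. Each was searched on both strands for the cyclic AMP response element (CRE) TGACGTCA, for its core TGACG, which lies within the full element, for the AP-1 site TGANTCA, and for the CArG box, the core of the serum response element. Matches are in capitals.
Dusp1 (chr10:17184603-17184902, + strand): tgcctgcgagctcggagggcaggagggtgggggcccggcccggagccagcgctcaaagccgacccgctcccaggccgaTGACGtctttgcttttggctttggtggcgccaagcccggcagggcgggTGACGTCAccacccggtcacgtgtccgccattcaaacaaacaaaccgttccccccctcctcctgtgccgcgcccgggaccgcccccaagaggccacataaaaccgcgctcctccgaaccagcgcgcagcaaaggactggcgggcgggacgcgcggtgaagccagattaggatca
Dusp2 (chr3:135009386-135009685, + strand): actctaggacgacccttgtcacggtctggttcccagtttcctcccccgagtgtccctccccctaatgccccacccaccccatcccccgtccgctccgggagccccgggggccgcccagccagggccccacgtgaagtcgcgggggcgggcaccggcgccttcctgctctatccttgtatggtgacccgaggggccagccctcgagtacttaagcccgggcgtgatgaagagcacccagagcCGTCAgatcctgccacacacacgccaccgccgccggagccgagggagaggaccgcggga
Dusp5 (chr1:262543524-262543823, + strand): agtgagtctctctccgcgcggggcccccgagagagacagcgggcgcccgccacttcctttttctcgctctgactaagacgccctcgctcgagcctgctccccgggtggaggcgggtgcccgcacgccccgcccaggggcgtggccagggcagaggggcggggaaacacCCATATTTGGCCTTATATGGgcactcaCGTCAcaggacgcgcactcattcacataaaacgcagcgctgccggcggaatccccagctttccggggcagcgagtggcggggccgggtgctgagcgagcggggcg
The full CRE was in the promoter of 1 of the 9 members, Dusp1, between 124 and 117 bases before the start, and in 1.83% of all 33469 promoters of this length. The CArG box was in 1 of the 9, Dusp5, with 2 adjoining copies between 82 and 63 bases before the start, and in 1.64% of all promoters. The core TGACG was in 4 of the 9, Dusp1, Dusp2, Dusp5 and Dusp16, and in 21.2% of all promoters. No member promoter held the AP-1 letters, which 7.33% of all promoters held. These are matches of letters in a short window and no measure of binding.

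Among the nuclear phosphatases, Dusp1 acts on p38, JNK and ERK and is an immediate early gene that glucocorticoids also induce. Its probe (rn4 chr10:16944342-16944661) read between 0.77 and 1.60 on the 6 CUS arrays, with a median of 1.17. On the 6 control arrays it read between -0.68 and 0.09, with a median of -0.45. The lowest CUS array was thus above the highest control array. The difference was 1.50 (SE 0.17, 95% confidence interval 1.13 to 1.87, adjusted p = 3.66e-05), and it stayed between 1.41 and 1.59 whichever array was left out. With spike-in scaling it was 2.33.

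Dusp5, a nuclear phosphatase selective for ERK, showed the largest difference of the family. Its probe (rn4 chr1:259767436-259767495) read between 0.61 and 1.50 on the CUS arrays, with a median of 1.27. On the control arrays it read between -1.29 and -0.05, with a median of -0.38. The groups did not overlap, and the lowest control value was that of control replicate 3. The difference was 1.63 (SE 0.20, 95% confidence interval 1.20 to 2.06, adjusted p = 5.94e-05) and was 1.47 without that array and 2.46 with spike-in scaling.

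Dusp2, an inducible nuclear phosphatase best known from activated lymphocytes and myeloid cells, was dim in both groups. Its probe (rn4 chr3:114839775-114839834) read between -3.28 and -2.25 on the CUS arrays, with a median of -2.82. On the control arrays it read between -5.01 and -3.50, with a median of -3.69, and on 5 of these 6 it was well above background. The groups did not overlap, and control replicate 3 again held the lowest value. The difference was 1.12 (SE 0.26, 95% confidence interval 0.55 to 1.69, adjusted p = 0.00415). With another background correction (normexp, with an offset of 50) it was 0.09 with an adjusted p of 0.49, so that the call on Dusp2 depended on how background was removed, and with spike-in scaling it was 1.95. The 4 T or NK cell genes that could be tested were not called by limma, also at an unadjusted p under 0.05, and had a mean level of -3.01 to -1.86 on the CUS arrays and of -2.87 to -2.33 on the controls. With spike-in scaling all 4 were called as higher. Cd3g and Cd4 were also called as higher with quantile normalization, and Cd3g with the replicate number as a block. Another 3 of the T or NK cell genes and 3 B cell genes were too dim to test, and 1 B cell gene was not matched to a probe. The neutrophil gene S100a9, the only one of its 3 listed genes that could be tested, was 1.50 higher (SE 0.36, adjusted p = 0.0047) and read from -3.58 to -2.03 on the CUS arrays, and from -5.36 to -3.71 on the control arrays, without overlap. S100a9 was well above background on 4 of the 6 control arrays and was not called with normexp. Of 6 macrophage genes 1 was higher and 1 lower, with a mean level of 0.18 to 1.19 and of -0.57 to 0.80. Over all tested probes 24.6% were higher and 25.4% lower. The part of these cells in the difference of Dusp2 was not tested.

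Dusp4, a nuclear phosphatase close to Dusp1 in sequence, went the other way under the 75th percentile and not under spike-in scaling. Its probe (rn4 chr16:61109868-61109927) read between -4.21 and -3.67 on the CUS arrays, with a median of -3.75. On the control arrays it read between -3.40 and -2.86, with a median of -3.27. The groups did not overlap, and the gap between them was 0.28. The difference was -0.64 (SE 0.12, 95% confidence interval -0.90 to -0.38, adjusted p = 0.0011), and with spike-in scaling it was 0.19 with an adjusted p of 0.45. Quantile normalization gave -0.34 (adjusted p = 0.038). Before any scaling the intensity of the probe was 30.4 to 45.4 on CUS and 31.6 to 40.9 on control arrays, and these ranges overlapped.

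The CUS and control values did not overlap at 4 of the 11 member probes, against 21.9% of all tested probes, and the 4 were the nuclear ones. A call together with a difference of at least 2-fold was made at 3 member probes (Dusp1, Dusp2 and Dusp5), against 11.8% of all tested probes. Dusp2 fell under 2-fold without control replicate 3 (0.90), with array weights (0.83) and with normexp (0.09). With quantile normalization (1.41) and with spike-in scaling (1.95) it stayed above. The plot of the members by array shows the separation of the nuclear class and the overlap in the others.

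**Figure D1:**
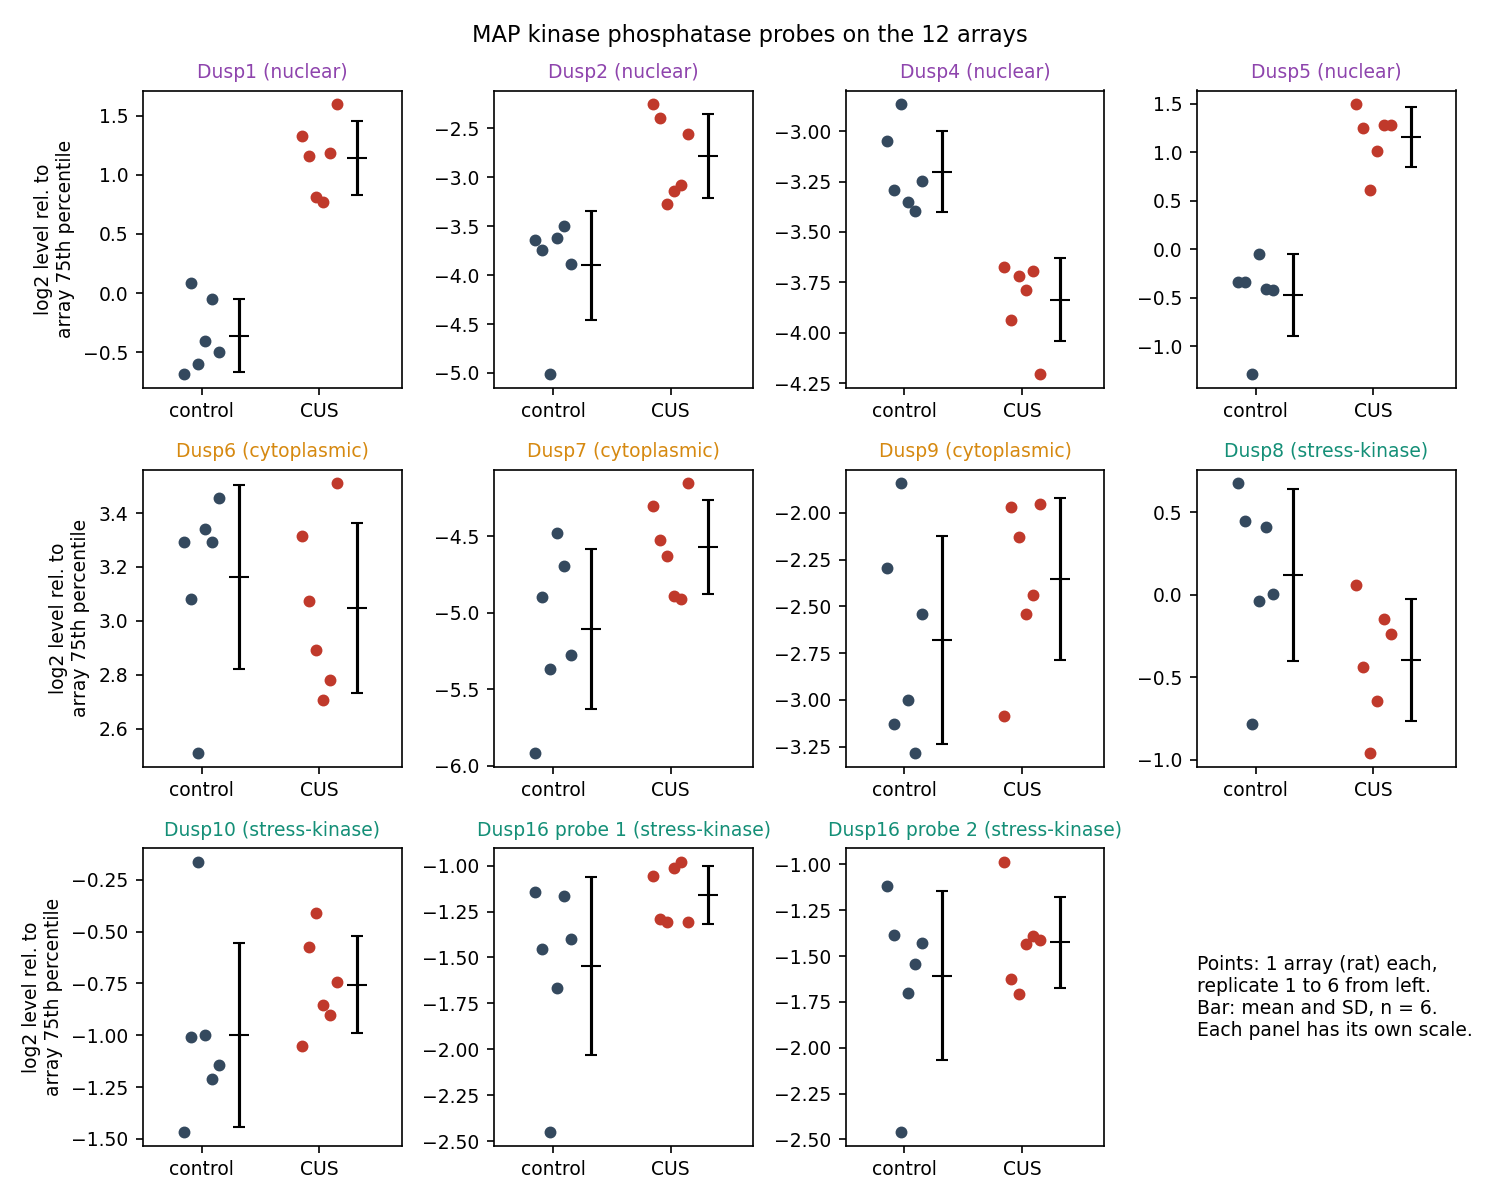
Log2 level relative to the array's 75th percentile for the 11 probes of the family, 1 panel per probe with its own scale; each point is 1 rat (6 control, 6 CUS, replicate 1 to 6 from left) and the bar is the mean and SD. The groups are apart for Dusp1, Dusp2, Dusp4 and Dusp5 and overlap for the other 7 probes; control replicate 3 is the lowest control point for Dusp2 and Dusp5 and the highest for Dusp10. Dusp16 probe 1 is the one at rn4 position 171620567 and probe 2 the one at 171622865.

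None of the cytoplasmic phosphatases was called. Dusp6, the cytoplasmic enzyme that binds ERK and is itself an ERK target, read from 2.71 to 3.51 on the CUS arrays, with a median of 2.98, and from 2.51 to 3.46 on the control arrays, with a median of 3.29. The ranges lay over each other. The difference was -0.12 (95% confidence interval -0.50 to 0.27, adjusted p = 0.61), which bounds a fall to 0.50 and a rise to 0.27 on this scale, and with spike-in scaling it was 0.71 with an adjusted p of 0.026.

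Dusp7, a close relative of Dusp6 that also prefers ERK, was near the limit of detection. It read between -4.91 and -4.15 on the CUS arrays, with a median of -4.58, and was well above background on all 6. On the control arrays it read between -5.92 and -4.48, with a median of -5.09, and was well above background on 2 of 6. It was thus bright enough to test mostly through the CUS arrays, which favours a higher value there. The groups overlapped, and the difference was 0.54 (95% confidence interval 0.04 to 1.03, adjusted p = 0.066). Its sign rested on the processing: it was 1.00 with quantile normalization (adjusted p = 0.0024), -0.43 with normexp (adjusted p = 0.0011) and 1.36 with spike-in scaling (adjusted p = 0.0016). It also passed without control replicate 4 (adjusted p = 0.028) or without control replicate 5 (adjusted p = 0.047).

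Dusp9, an ERK-preferring phosphatase that is known from insulin-responsive tissues, varied more within a group than between groups. It read from -3.09 to -1.95 on the CUS arrays, with a median of -2.29, and from -3.28 to -1.84 on the control arrays, with a median of -2.77. Both groups spanned nearly the same range. The difference was 0.33 (SE 0.26, 95% confidence interval -0.24 to 0.90, adjusted p = 0.31). It was called as higher with spike-in scaling (1.16, adjusted p = 0.00033) and with array weights (0.63, adjusted p = 0.010), which let the noisier arrays count less. Each of these settings called 66.5% of all tested probes.

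The stress-kinase phosphatases did not pass either. Dusp8, which acts on JNK and p38, read from -0.96 to 0.06 on the CUS arrays, with a median of -0.34, and from -0.78 to 0.68 on the control arrays, with a median of 0.21. Control replicate 3 was the only control array below -0.04. The difference was -0.51 (95% confidence interval -1.03 to 0.003, adjusted p = 0.089), and without that array it was -0.69 with an adjusted p of 0.0074. It was also called as lower with array weights (-0.77, adjusted p = 0.0026), with the replicate number as a block (adjusted p = 0.0068) and with normexp (-0.44, adjusted p = 0.045). With spike-in scaling it was 0.31 (adjusted p = 0.40).

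Dusp10, a phosphatase selective for p38 and JNK, read from -1.05 to -0.41 on the CUS arrays, with a median of -0.80, and from -1.47 to -0.16 on the control arrays, with a median of -1.08. Control replicate 3 held the highest value of all 12 arrays. The difference was 0.24 (95% confidence interval -0.17 to 0.66, adjusted p = 0.30), and without that array it was 0.41 with an adjusted p of 0.016. It also passed with array weights (0.37, adjusted p = 0.023) and with spike-in scaling (1.07, adjusted p = 0.0012).

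Dusp16, a phosphatase that prefers JNK, was read by 2 probes, and neither was called. The first (rn4 chr4:171620567-171620626) read from -1.31 to -0.98 on the CUS arrays, and from -2.45 to -1.14 on the control arrays, a difference of 0.39 (95% confidence interval -0.03 to 0.81, adjusted p = 0.11). The second (rn4 chr4:171622865-171622924) read between -1.71 and -0.99 and between -2.46 and -1.12, a difference of 0.18 (95% confidence interval -0.25 to 0.61, adjusted p = 0.46). At both probes the lowest value was that of control replicate 3, and without it the differences were 0.21 and 0.01. With spike-in scaling both were called, at 1.22 (adjusted p = 0.0025) and 1.01 (adjusted p = 0.0058), and with array weights the first was called at 0.30 (adjusted p = 0.036) while the second was -0.01.

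**Figure D2:**
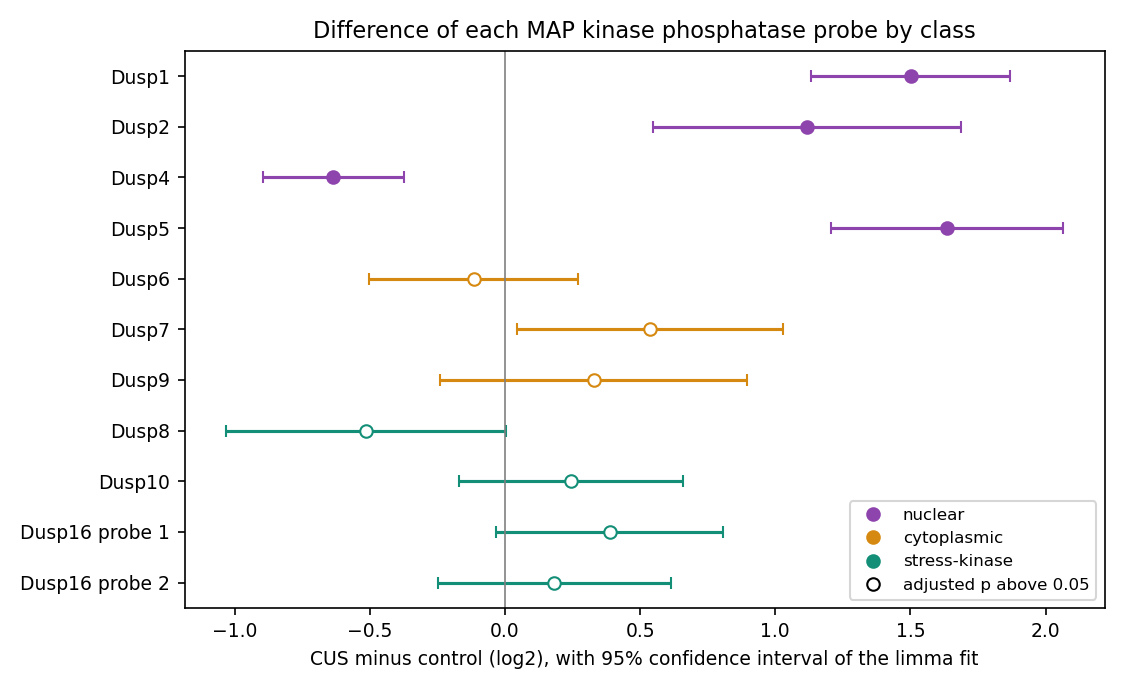
Difference of CUS minus control on the log2 scale for each of the 11 probes, coloured by class, with the 95% confidence interval of the limma fit (6 against 6 arrays); filled points passed an adjusted p of 0.05. The 4 nuclear probes are filled, with Dusp1, Dusp2 and Dusp5 between 1.12 and 1.63 and Dusp4 at -0.64, and the 7 other probes lie between -0.51 and 0.54.

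Read as classes, the median difference was 1.31 over the 4 nuclear members, 0.33 over the 3 cytoplasmic members and 0.24 over the 3 stress-kinase members, against -0.02 over all tested probes. The members were chosen with results known, and classes of 3 or 4 genes were not tested against each other. Each member was also centred on its mean over the 12 arrays and averaged within its class. The nuclear mean lay from 0.14 to 0.76 on the CUS arrays, and from -0.91 to -0.29 on the control arrays, with no overlap. That separation follows from the values of Dusp1, Dusp2, Dusp4 and Dusp5 given above and is no further result. The cytoplasmic mean lay from -0.16 to 0.55 on the CUS arrays, and from -0.23 to 0.04 on the control arrays. The stress-kinase mean lay from -0.10 to 0.11 on the CUS arrays, and from -0.34 to 0.14 on the control arrays. Both of these overlapped.

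**Figure D3:**
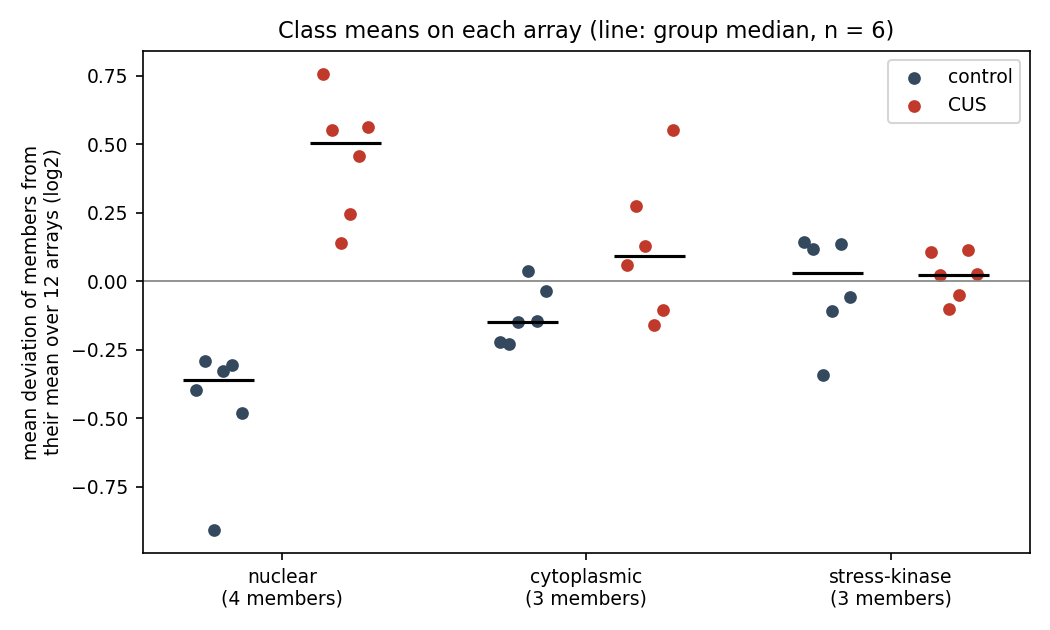
Mean deviation of the members of each class from their own mean over 12 arrays (log2), 1 point per array, with the group median as a line (n = 6). The nuclear class is apart between the groups, from -0.29 at most on control arrays to 0.14 at least on CUS arrays, and the 2 other classes overlap.

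Within a group, members did not vary independently from array to array. Control replicate 3 held the lowest control value at 6 of 11 probes (Dusp2, Dusp5, Dusp6, Dusp8 and both probes of Dusp16) and the highest at 3 (Dusp4, Dusp9 and Dusp10). CUS replicate 3 held the lowest CUS value at 4 probes (Dusp2, Dusp5, Dusp8 and the second probe of Dusp16) and the highest at 1 (Dusp10). In both groups Dusp10 was thus at its highest on the array where Dusp2, Dusp5 and Dusp8 were at their lowest.

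Collagenase digestion itself induces immediate early and heat shock genes, and Dusp1 is commonly counted among such genes. A list of 20 of them, without any member, had 19 tested genes, of which 9 rose and none fell. Of all tested probes 24.6% were higher and 25.4% lower. None of the 19 was lower at an unadjusted p under 0.05 or by the methods' t-test either. Nr4a1 was called as lower with array weights and without control replicate 3. With spike-in scaling 18 rose. Hspa1b, an inducible heat shock protein, differed by 2.51, the transcription factor Atf3 by 1.81, the chaperone Dnajb1 by 1.19 and Zfp36, which destabilises messenger RNAs, by 0.95. The median of the list was 0.45. Its mean log2 level was from 2.92 to 3.74 on the CUS arrays, and from 2.16 to 3.15 on the control arrays, so that the groups overlapped. The part of dissociation in the member differences was not tested.

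Each member was set against this list mean within the 6 CUS and within the 6 control arrays, which gave 20 relations, with two-sided exact permutation tests and Benjamini-Hochberg adjustment over the 20. None passed. For Dusp5, Pearson's r was 0.93 in CUS (exact p = 0.0042, adjusted p = 0.065; Spearman's rho 0.94, exact p = 0.017, adjusted p = 0.17) and 0.86 without the 2 arrays farthest from the median of the list mean. In the controls it was 0.78 (exact p = 0.074, adjusted p = 0.16; rho 0.83, exact p = 0.058, adjusted p = 0.19) and 0.44 without the 2 farthest. For Dusp2, r was 0.92 in CUS (exact p = 0.0069, adjusted p = 0.065; rho 0.94, exact p = 0.017, adjusted p = 0.17) and 0.83 without the 2 farthest. In the controls r was 0.82 (exact p = 0.044, adjusted p = 0.13; rho 0.49, exact p = 0.36, adjusted p = 0.59) and 0.46 without them. For Dusp1, r was 0.84 in CUS (exact p = 0.044, adjusted p = 0.13; rho 0.83, exact p = 0.058, adjusted p = 0.19) and 0.22 in the controls (exact p = 0.69, adjusted p = 0.76; rho 0.09, exact p = 0.92, adjusted p = 1.0), and 0.94 and 0.71 without the 2 farthest. For Dusp8, r was 0.91 in CUS (exact p = 0.015, adjusted p = 0.076; rho 0.83, exact p = 0.058, adjusted p = 0.19) and 0.92 in the controls (exact p = 0.0097, adjusted p = 0.065; rho 0.83, exact p = 0.058, adjusted p = 0.19), and 0.63 and 0.53 without the 2 farthest. In the controls, replicate 3 was one of the 2 farthest arrays. The other 12 relations had an adjusted p of at least 0.127.

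**Figure D4:**
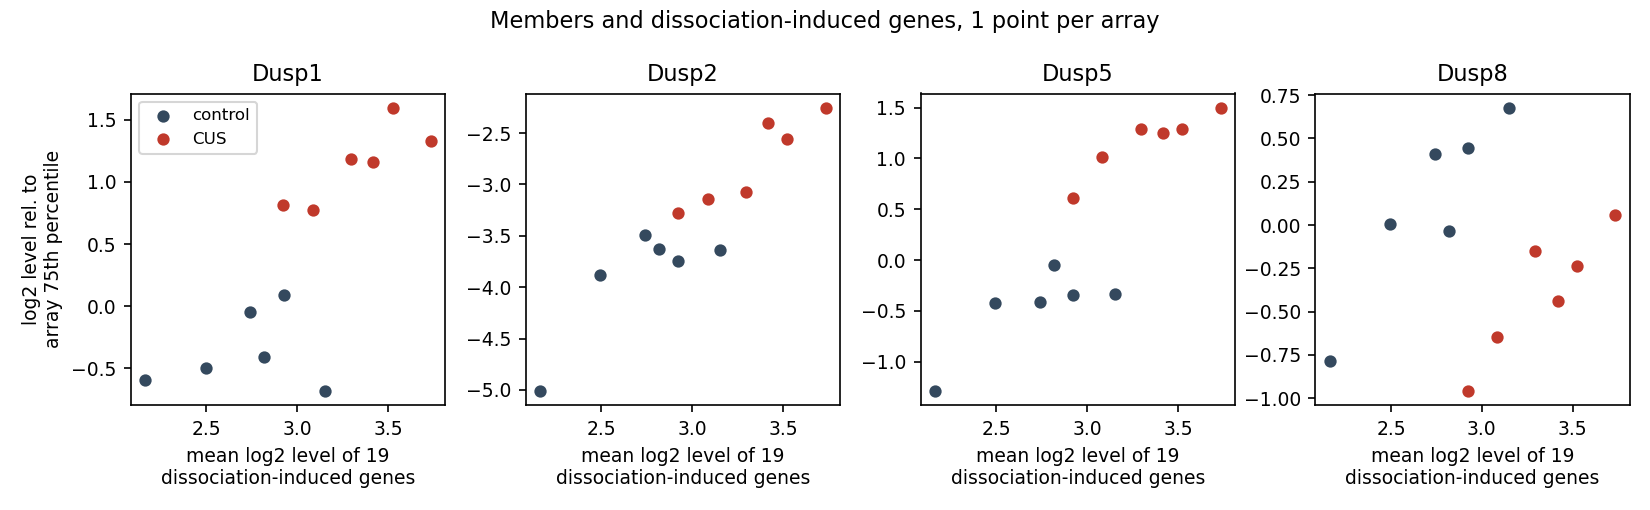
Log2 level of Dusp1, Dusp2, Dusp5 and Dusp8 (vertical, each with its own scale) against the mean log2 level of 19 dissociation-induced genes (horizontal), 1 point per array, for 6 control and 6 CUS arrays. On the horizontal axis the CUS arrays lie from 2.92 to 3.74 and the control arrays from 2.16 to 3.15, with control replicate 3 as the leftmost point.

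Counts of called cell type genes were read beside all tested probes, of which 24.6% were higher and 25.4% lower. Red blood cell genes were higher in CUS at 5 of 5 tested genes. Their mean level was 6.38 to 7.04 on the CUS arrays and 1.10 to 2.27 on the control arrays. Mast cell genes were higher at 5 of 6 (-3.28 to -1.85 against -5.42 to -5.07). On the control arrays the mast cell genes Fcer1a and Ms4a2 were well above background on 0 of 6, Cpa3 on 1 and Tpsab1 on 4. Fcer1a and Ms4a2 were thus bright enough to test only through the CUS arrays, and Cpa3 mostly through them, which favours a higher call. With normexp Fcer1a was called as lower and Ms4a2 was not called. Endothelial genes were lower at 4 of 6 (-0.10 to 0.91 against -0.02 to 1.91) and smooth muscle or pericyte genes at 5 of 6 (-1.58 to -0.01 against -1.51 to 1.68). With spike-in scaling the difference was below 0 for 3 of the 6 endothelial and 5 of the 6 smooth muscle or pericyte genes. Mesothelial genes were higher at 3 of 4 (-1.14 to -0.40 against -3.09 to -0.84), with a median difference of 1.29. Preadipocyte or fibroblast genes were lower at 2 of 6 (1.26 to 2.60 against 1.12 to 3.00), with a median difference of -0.83 that became -0.00 with spike-in scaling. Of the 6 macrophage genes Csf1r counted as higher at its brighter probe (1.25, adjusted p = 0.00048), while its other probe was lower (-1.25, adjusted p = 6.77e-06), and of 8 adipocyte genes 3 were higher and 2 lower. The part of these cell types in the member differences was not tested.

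The kinases that the phosphatases act on, and the kinases around them, were read against the 24.6% of all tested probes that were higher and the 25.4% that were lower. Among 18 ERK cascade genes 3 were higher, 5 lower and 10 not called. Mapk3, which encodes an ERK kinase, was lower (-0.27, SE 0.10, adjusted p = 0.042), a call that ended in 12 of 22 alternative settings, among them leaving out any 1 of the CUS arrays or control replicate 1, 2, 3 or 4. With spike-in scaling Mapk3 was called as higher. The kinase Map2k1, which phosphorylates ERK, was 0.48 higher (SE 0.10, adjusted p = 0.0017). The ERK effector kinases Rps6ka2 (-0.93, SE 0.18) and Rps6ka1 (-0.60, SE 0.20) and the scaffold Ksr1 (-0.69, SE 0.14) were lower, though a second probe of Rps6ka2 at -0.48 was not called and Rps6ka1 was not called without CUS replicate 4 or control replicate 4 or 6. Sos2, named after its values were seen, counted as lower at its brighter probe (-0.37) while its other probe was 2.37 higher. The lower call on Sos2 ended without CUS replicate 1, 2 or 6 or control replicate 5 or 6.

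Among 10 tested JNK cascade genes 2 were higher, 2 lower and 6 not called. The upstream kinases Map3k12 (-1.03, SE 0.09) and Map3k1 (-0.70, SE 0.16) were lower, and the JNK kinase Map2k4 (0.78, SE 0.20) and the scaffold Mapk8ip1 (0.36, SE 0.12) were higher. Mapk8ip1 was not called with quantile normalization or without CUS replicate 2, 3 or 6 or control replicate 1, 2, 4 or 5. Mapk9, a JNK gene, was not called (0.24, SE 0.13, adjusted p = 0.13), and Mapk8 was not matched to a probe. Among 13 p38 cascade genes 5 were higher, 3 lower and 5 not called. Mapk14, the main p38 gene, was not called (0.13, SE 0.08, adjusted p = 0.23). Mapk11, another p38 gene (-1.25, SE 0.36), and the upstream kinase Map3k6 (-0.82, SE 0.21) were lower, and the p38 effector kinases Rps6ka4 (0.66, SE 0.13) and Mapkapk3 (0.59, SE 0.15) were higher. With spike-in scaling no gene of these 3 cascades was lower, and 12, 8 and 10 were higher.

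Of 17 tested ERK feedback and target genes 5 were higher, 2 lower and 10 not called, beside the same shares of 24.6% and 25.4% of all tested probes. The transcription factors Fosl1 (2.24, SE 0.52) and Fos (0.92, SE 0.16) and the early gene Phlda1 (1.32, SE 0.30) were higher, and the inhibitor Spred3 was lower (-0.84, SE 0.23). Phlda1 was not called with normexp, and Spred3 was not called with quantile normalization or in the deposited quantile table. Egr1 was not called at its brighter probe, while its other probe was 0.63 higher (adjusted p of limma 0.037). With spike-in scaling 12 were higher and none lower, and with normexp 5 were higher and 5 lower.

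Other phosphatases of the MAP kinases were read for comparison. Of 7 tested genes 3 were higher, 1 lower and 3 not called, beside 24.6% higher and 25.4% lower over all tested probes. The catalytic subunits Ppp2cb (0.55, SE 0.15) and Ppp2ca (0.40, SE 0.10) and the metal-dependent phosphatase Ppm1a (0.46, SE 0.15) were higher, and the tyrosine phosphatase Ptpn7 of blood cells was lower (-0.69, SE 0.24), which spike-in scaling would turn positive. Ptpn7 was also not called with quantile normalization, in the deposited quantile table, or without CUS replicate 3, 4 or 5 or control replicate 2, 4 or 5. Of 9 tested atypical dual specificity phosphatases, which lack the MAP kinase binding domain, 3 were higher, none lower and 6 not called. These counts stand beside the same shares of all tested probes. At an unadjusted p under 0.05 in limma 2 were lower, and by the methods' t-test 1 was lower. Dusp14 was 1.08 higher (SE 0.14), Dusp19 0.91 (SE 0.12) and Dusp12 0.55 (SE 0.17). Dusp12 was well above background on all 6 CUS arrays and on 2 of the 6 control arrays. It was thus tested mostly through the CUS arrays, which favours a higher call. With normexp Dusp12 was called as lower, Dusp19 was not called, and Dusp14 stayed higher. With spike-in scaling all 9 were higher, and with normexp 2 were higher and 3 lower.

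Since glucocorticoids induce Dusp1, 11 other genes known for that response were read beside it. Of these 1 was higher, 2 were lower and 8 were not called, with a median of -0.37. Of all tested probes 24.6% were higher and 25.4% lower. The clock gene Per1 (-0.74, SE 0.13) and the transcription factor Klf9 (-0.51, SE 0.14) were lower, and Nfkbia, the inhibitor of NF-κB, was higher (0.74, SE 0.28). The 2 lower genes would be above 0 with spike-in scaling, under which 4 of the 11 were higher and none lower. Nfkbia was not called in 11 of 22 alternative settings, under which none of the 11 genes was higher: quantile normalization, the deposited quantile table, array weights, the methods' t-test, and leaving out CUS replicate 1, 2, 5 or 6 or control replicate 3, 4 or 6.

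The genes most like a member were sought among 12114 named genes by Pearson's r over the 12 arrays after the group means were removed, for the brightest member of each class. For Dusp1 these were Gdf15 (r = 0.90), Slc3a2 (0.89) and Ostn (0.88). For Dusp6 they were Taok3 (0.98), Tifab (0.97) and Crym (0.97), and for Dusp8 Noct (0.98), Sat1 (0.98) and Pgf (0.97). These are descriptions over arrays that share control replicate 3. Gdf15 was itself 2.01 higher in CUS, while Slc3a2 (0.18) and Ostn (0.11) were not called. Noct was 1.75 higher (adjusted p = 0.00019), Taok3 (-1.09, adjusted p = 0.0005) and Crym (-0.74, adjusted p = 0.015) were lower and were not called with spike-in scaling, and Tifab (-0.12), Sat1 (0.54) and Pgf (0.03) were not called.

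**Figure D5:**
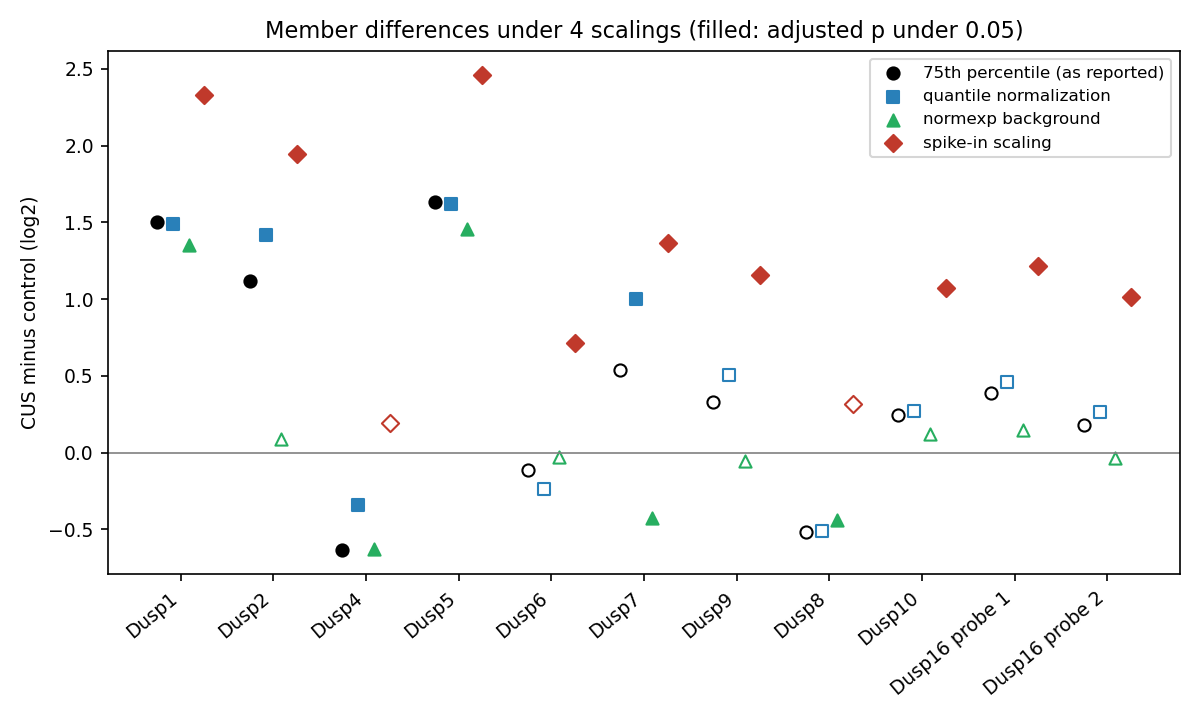
Difference of CUS minus control (log2) for each probe under 4 ways to scale or correct the arrays; filled symbols passed an adjusted p of 0.05. Dusp1 and Dusp5 are filled and above 1 under all 4, Dusp2 drops to 0.09 with normexp, Dusp4 turns from -0.64 to 0.19 and Dusp6 from -0.12 to 0.71 with spike-in scaling, and Dusp7 turns from 0.54 to -0.43 with normexp.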

How the data were processed

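RNA of epididymal adipocytes from 6 CUS and 6 control rats was read on single-dye arrays, 1 per rat. The authors deposited spot intensities from Agilent Feature Extraction (10.7.3.1, per the file headers), already corrected for background and spatial trend, and a table of quantile normalized intensities, used as an alternative. Although an exon array is named in the paper, the deposited design is a gene expression array, positioned on rn4, for which no annotation was used here. Columns that mark spots as well above background, saturated or outliers came with the same deposited files. After removal of outlier spots, the mean of the spots of each probe was taken on the log2 scale with the array's 75th percentile subtracted. Testing was limited to probes that exceeded background clearly on 6 or more of 12 arrays, with limma 3.58.1 (R 4.3.3; Python 3.11.15), two-sided, without covariates, with Benjamini-Hochberg adjustment. Each list gene was read at its brightest tested probe. The members, the lists and the tests were chosen with earlier results of these data known. Every member probe is reported, with up to 4 called genes per pathway list by size of difference, the MAP kinases, and the 3 nearest genes per class. A result that this rule would name is not reported here. Alternatives covered scaling, background, dim probes, variance, weights, block, the methods' t-test and each array. The fit was tested on simulated data. The number of arrays limits the precision, and p-values cover the spread between these rats only.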

Additional observations from a re-analysis of the deposited data

Results flagged for a closer look

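Control replicate 3 lay far from the other 5 controls at 3 member probes, by its gap to the nearest of them over the range of the group. It was the lowest control for Dusp2, at -5.01 where the next was -3.88, the lowest for Dusp5, at -1.29 where the next was -0.43, and the highest for Dusp10, at -0.16 where the next was -0.996. Chance alone marks about 1 in 20 groups in this way, and 22 were examined, which are not independent since they share arrays. Without this array the differences of Dusp2 and Dusp5 were 0.90 and 1.47, and both passed (adjusted p of limma 0.0015 and 1.25e-05).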

How the results depend on the processing

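Dusp1 and Dusp5 were called under all 22 alternatives, Dusp4 under 21 (not with spike-in scaling) and Dusp2 under 20 of 21 (not with normexp), in the same direction each time. Spike-in scaling gave 9 member probes higher and 0 lower (nuclear 0 lower, cytoplasmic 3 higher, stress-kinase 3 higher; 12642 probes higher and 470 lower overall), and turned Dusp4 to 0.19 and Dusp6 to 0.71. Normexp gave 3 member probes lower (1 cytoplasmic, 1 stress-kinase; 8844 probes lower overall), turned Dusp7 to -0.43, and moved the median of all tested probes to -0.18. Dropping the filter on dim probes moved it to -0.34, with 12659 probes lower. Quantile normalization and the deposited quantile table each added 1 cytoplasmic probe, Dusp7. Array weights gave 6 member probes higher and 2 lower (1 cytoplasmic higher, 2 stress-kinase higher, 1 lower). They called 66.5% of all tested probes (6482 higher and 6645 lower). Of all calls the share higher in CUS was 49.2%, and 58.7% with quantile normalization, 96.4% with spike-in scaling and 33.5% with normexp. Leaving out each array in turn gave 3 to 4 member probes higher and 1 to 2 lower, 3 and 1 in the nuclear class throughout, 0 to 1 cytoplasmic higher, 0 to 1 stress-kinase higher and 0 to 1 lower. The methods' t-test put 3 member probes past its own threshold (unadjusted p under 0.05 and at least 2-fold), as it did 2337 of all 19727 tested probes. Whether the replicate numbers pair the rats cannot be told from these values. Same-numbered deviations correlated from -0.19 to 0.43, and the same-numbered control was the closest for CUS replicates 3 and 5. Arrays of equal number also held the same position on their slides. With the replicate block 2 member probes were lower, the second being Dusp8 (1 stress-kinase lower, adjusted p = 0.0068), and no other member call changed. Without the 2 arrays farthest from the median of the dissociation list, r changed sign for Dusp6 in controls (-0.88), Dusp7 in controls (0.67), Dusp9 in CUS (0.92), Dusp10 in CUS (0.58) and controls (0.63), and Dusp16 in CUS (-0.83) and controls (-0.27), none of which had passed. The cause was not tested. Dusp2, Dusp4 and Dusp7 are dim, and their differences are limited by the signal over background.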
